A study of Arabidopsis thaliana with 8 samples.

Results

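The contacts described here join the inverted repeat of the Arabidopsis plastid genome to its large single copy region. The contact map divides the genome into 155 bins of 1 kb, and a member is a pair of bins with one end among the 84 bins of the large single copy region and the other in either copy of the repeat. Each bin of the second copy was laid onto its image in the first, which left 27 repeat places, and distance was taken along the circle to the nearer copy (folded distance). Whole bins were matched, so the 2 bins of a place coincide only in part. Repeat genes are named from the first copy: 103001 to 104000 overlaps trnI and trnA, and its image overlaps only trnI. Pairs within 1 kb were left out, which removed 4 pairs of bins. This gave 4532 of the 12090 bin pairs of the map, or 2266 of 8256 pairs after folding.

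Proximity between DNA segments was read by Hi-C, in which fragments that touch are joined and the junctions are sequenced. The samples were chloroplast membranes from leaves of Col0 plants of wild type genotype, 14 days old. Per the labels, 4 libraries (EGS replicates 1 to 4) came from chloroplasts crosslinked with EGS, a chemical that links amines of neighbouring proteins, at 5 mM for 45 min, and with formaldehyde at 4 % for 4 h. The other 4 libraries (nox replicates 1 to 4) are labelled non-crosslinked and are the negative controls of the series, although the protocol text is identical for all 8 samples. No label ties a replicate to a separate batch of plants, so the p-values measure the spread between these libraries, which may be technical.

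The plastid genome is a circle in which a pair of inverted repeat copies separates a large from a small single copy region. The repeat carries the ribosomal RNA operon, several transfer RNA genes, ycf2 (a large gene whose product takes part in protein import into the chloroplast), ndhB and genes for ribosomal proteins. The large single copy region carries most photosynthesis genes, the genes of the plastid-encoded RNA polymerase and many transfer RNA genes. Because the repeat copies have the same sequence, recombination between them inverts the single copy regions relative to each other, and both orientations are found in chloroplasts. A repeat place therefore borders the large single copy region at both ends of that region, next to trnH and psbA at one end and next to rps3 and rpl22 at the other.

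Total contacts ranged from 351828 to 708524 per library, and most of them lay within 1 kb. The member contacts numbered 21371, 10756, 6910 and 4095 in EGS replicates 1 to 4 and 15788, 10079, 595 and 1113 in nox replicates 1 to 4. Nox replicates 3 and 4 therefore stood apart, with 0.263 and 0.491 contacts per folded pair against 1.81 to 9.43 in the other 6 libraries, and 77.5% and 64.2% of their folded pairs held no contact. Replicates 1 and 2 were deep in both groups, and results are given within them where this changed a value. The differences between libraries exceeded counting noise in both groups, with chi-square per degree of freedom over the places of 1.48 to 3.97 between EGS libraries and 2.12 to 20.6 between nox libraries.

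The first comparison asked how much of the contact map fell between the repeat and the large single copy region with and without crosslinking. Of the contacts beyond 1 kb, the EGS libraries placed 35.0%, 31.5%, 33.6% and 32.0% there. The nox libraries placed 28.8%, 28.7%, 20.9% and 24.3% there. All EGS values lay above all nox values. The 95% Wilson intervals of single libraries, counting error only, were 34.6% to 35.3% in EGS replicate 1 and 19.5% to 22.5% in nox replicate 3. For the lowest EGS and the highest nox library they were 31.0% to 32.0% (EGS replicate 2) and 28.4% to 29.1% (nox replicate 1). The share was 33.0% ± 1.55 (SD, n = 4) in EGS and 25.7% ± 3.78 (SD, n = 4) in nox, a difference of 7.36 percentage points (exact two-sided permutation test over the 70 assignments, p = 0.0286, the smallest this design allows, Benjamini-Hochberg adjusted p = 0.0429 over 9 measures). The difference was 4.54 points between replicates 1 and 2 of each group and 10.2 points between replicates 3 and 4. Without EGS replicate 1 the exact permutation test gave p = 0.0857, and without EGS replicate 3 it gave p = 0.0571. With pairs within 20 kb left out the difference was 14.7 points.

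Within the members, the contacts of EGS libraries were placed differently along the repeat. The segment next to the large single copy region, which runs from rps19 and rpl2 (ribosomal proteins) through ycf2, held 36.0%, 35.8%, 38.0% and 36.8% of member contacts in EGS and 27.9%, 27.8%, 29.6% and 30.8% in nox. The groups did not overlap, and the difference was 7.63 points (exact permutation test, p = 0.0286, adjusted p = 0.0429). It was 8.06 points in replicates 1 and 2, 7.21 points in replicates 3 and 4, and 6.86 points beyond 20 kb.

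The other 3 segments shared the remainder, and since the 4 shares of a library sum to its whole, a gain in one lowers the rest. The segment from trnL through ndhB (a subunit of the NDH complex) and rps7 held 19.1% ± 0.544 in EGS and 21.7% ± 1.86 in nox (SD, n = 4; difference -2.60 points, exact permutation test, p = 0.0286, adjusted p = 0.0429). That call was lost when any 1 EGS library was left out (exact permutation p = 0.0857 each time). The rRNA operon with its flanking transfer RNA genes held 35.2% ± 1.39 and 36.4% ± 5.51 (SD, n = 4), a difference of -1.20 points that did not pass (exact permutation test, p = 0.657). The sign of that difference turned between the depth classes, from -4.69 points in replicates 1 and 2 to 2.28 points in replicates 3 and 4.

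The short end of the repeat next to the small single copy region, with trnN and the start of ycf1, held 9.03% ± 0.771 in EGS and 12.9% ± 2.50 in nox (SD, n = 4; difference -3.83 points, exact permutation test, p = 0.0286, adjusted p = 0.0429). This call too was lost when any 1 EGS library was left out (exact permutation p = 0.0857). It rested largely on the last place, 110001 to 111000, which also overlaps ndhF of the small single copy region in the gene table. In nox, 63.1% of that place's contacts were assigned to the first copy. The place before it, 109001 to 110000, held 4.48% ± 0.653 in EGS and 5.52% ± 0.659 in nox (SD, n = 4; exact permutation test, p = 0.114).

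**Figure D1:**
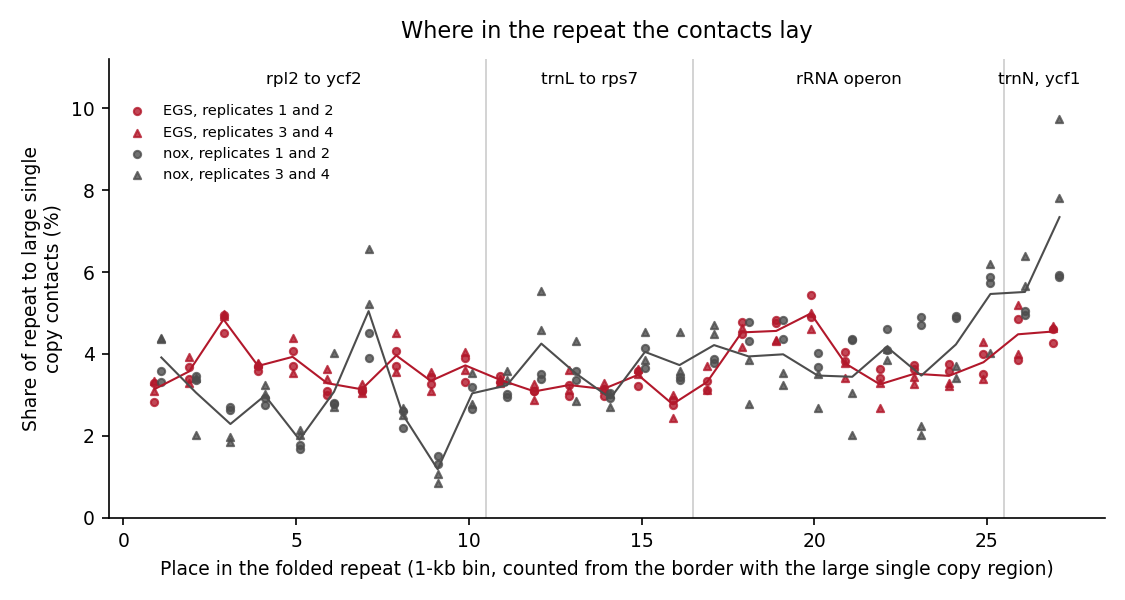
Share of each library's repeat to large single copy contacts (percent, vertical axis) at each of the 27 folded repeat places (horizontal axis, 1-kb bins from the border); points are libraries, with circles for replicates 1 and 2 and triangles for replicates 3 and 4, and lines join group means. EGS libraries (red) stay between 2.44% and 5.44%, while nox libraries (grey) range from 0.840% to 9.75%, with their lowest value inside ycf2 and their highest at the end of the repeat.

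Place by place, the largest differences lay inside ycf2 and at its start. Totals of each place were tested with edgeR's quasi-likelihood test in a fit over all 384 totals of a place with a partner region, and values are CPM, contact ends scaled to a common library size. The place 92001 to 93000 in ycf2 had 6214, 5109.8, 6065 and 4975 CPM in EGS and 2114, 1843, 898 and 1292 CPM in nox. Every EGS library lay far above every nox library there, with a log2 change of 1.58 ± 0.14 (SE) and an edgeR adjusted p of 1.59e-08. In nox this was the place of the repeat with the fewest contacts, down to 5 in replicate 3.

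The place 88001 to 89000, also in ycf2, had 7355, 5792, 7495 and 5680.1 CPM in EGS and 2335, 2513, 2155 and 2583 CPM in nox. The nox libraries agreed closely despite their unequal depth, and the log2 change was 1.44 ± 0.13 (edgeR adjusted p = 1.68e-08). The place 86001 to 87000, which holds rpl23, trnI and the start of ycf2, had 8158, 7723, 8407 and 7991 CPM in EGS and 3769, 3713, 1976 and 2368 CPM in nox. The groups were again far apart, with a log2 change of 1.22 ± 0.14 (edgeR adjusted p = 1.99e-07).

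Not all of ycf2 followed. The place 90001 to 91000, which lies between those just described, had 5639, 4848, 5202 and 5249 CPM in EGS and 6299, 5499.7, 5568 and 7857 CPM in nox. The groups overlapped and the log2 change of -0.23 ± 0.12 did not pass (edgeR adjusted p = 0.102).

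Across the repeat, 13 of 27 places rose and 0 fell (edgeR adjusted p under 0.05, and 13 at an unadjusted p under 0.05), which is 48.1% higher. Of all 384 totals 63.5% were called, 31.8% higher and 31.8% lower. The rises covered 8 of the 10 places from rpl2 to ycf2 (median log2 change 0.66), 2 of 6 from trnL to rps7 (median 0.16), 3 of 9 of the rRNA operon (median 0.06) and 0 of 2 at the trnN and ycf1 end (median -0.06). The median over all 384 totals was 0.00. The first place at the border, 84001 to 85000 with rps19 and rpl2, was among those that did not pass, at a log2 change of 0.10 ± 0.11. In replicates 1 and 2 alone 13 repeat places rose and 1 fell, with a median over the 27 of 0.14 against 0.25 in all libraries. On the first copy alone 13 rose and 2 fell, and on the second copy alone 13 rose and 3 fell.

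Outside the ycf2 segment, the largest change was at 103001 to 104000, in the spacer of the rRNA operon that carries trnI and trnA, the transfer RNA genes for isoleucine and alanine. It had 9824, 7650.1, 8530.3 and 7404 CPM in EGS and 5617, 5179, 2874 and 4198 CPM in nox. The groups did not overlap, and the log2 change was 0.75 ± 0.15 (edgeR adjusted p = 0.000137). The place 94001 to 95000, with trnL and part of ndhB, rose by 0.45 ± 0.11 on the log2 scale (edgeR adjusted p = 0.00193).

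These directions depend on the scale. When each library was scaled to its own member contacts, which removes the overall gain, the median of the 384 totals moved from 0.00 to -0.31, and 6 repeat places rose while 6 fell (17.4% of all totals higher and 45.1% lower). On that scale 86001 to 87000, 88001 to 89000, 92001 to 93000 and 103001 to 104000 still rose, at 0.94, 1.12, 1.30 and 0.45 in log2. The place 94001 to 95000 no longer passed, at 0.11 (edgeR adjusted p = 0.463). The place 90001 to 91000 fell, at -0.60 (edgeR adjusted p = 0.00334), as did 108001 to 109000 with trnR, at -0.58, and 110001 to 111000, at -0.59.

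The same contacts were then read from the other end, as the partners of the repeat. Of the 84 places of the large single copy region, 41 had more contacts with the repeat in EGS and 10 had fewer (48.8% and 11.9%, against 31.8% and 31.8% of all totals, edgeR adjusted p under 0.05), and the median log2 change was 0.34. Scaled to member contacts, 22 rose and 24 fell and the median was 0.04. Rises and falls were interspersed along the region, and whether they formed a gradient from the ends was not tested.

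**Figure D2:**
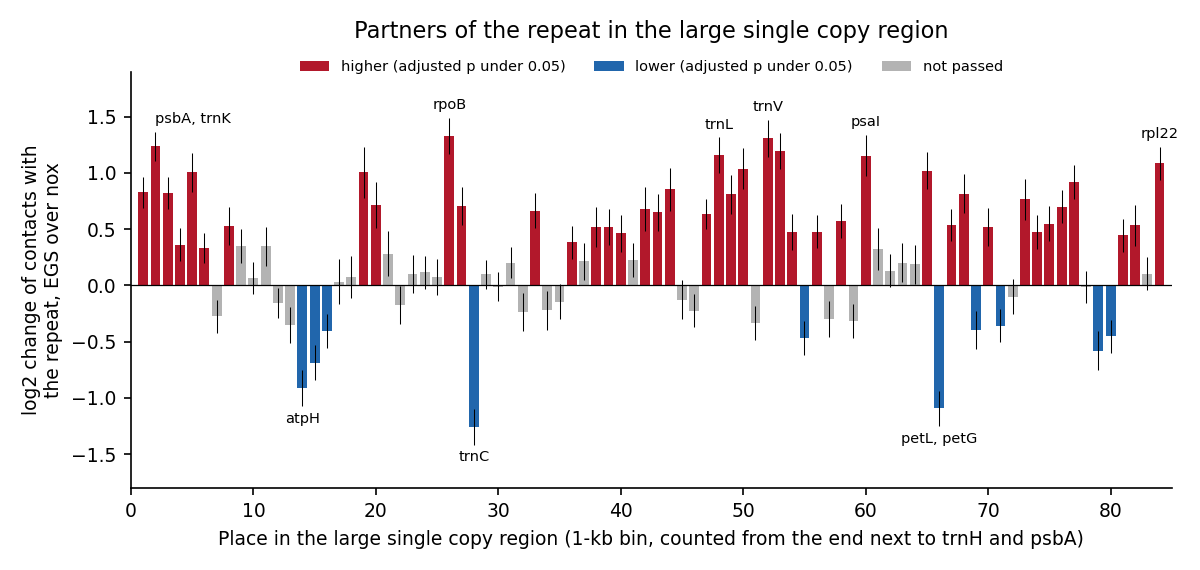
log2 change, EGS over nox, of the contacts of each of the 84 large single copy places with the repeat (bars, with standard errors), along the region in kb from the end next to trnH and psbA; colour gives the edgeR call. The highest bars are at rpoB (1.33), trnV (1.31) and psbA with trnK (1.24), and the lowest at trnC (-1.26) and at petL with petG (-1.09).

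At the psbA border all 5 places rose, with a median log2 change of 0.83. The place 1001 to 2000, which holds the start of psbA (the D1 protein of photosystem II) and trnK, had 3500.1, 3426, 3846 and 3095 CPM in EGS and 1530.4, 1452, 1617 and 969 CPM in nox. The lowest EGS library lay far above the highest nox library. Its log2 change was 1.24 ± 0.13 (edgeR adjusted p = 9.46e-08). At the other border, next to rpl22, 3 of 5 places rose and 1 fell. The last place, 83001 to 84000 with rps3 and rpl22 (ribosomal proteins), rose by 1.09 ± 0.15 on the log2 scale (edgeR adjusted p = 2.35e-06). Scaled to member contacts, 4 of the 5 places at the psbA border rose and 0 fell (median 0.53). On that scale 1 place at the rpl22 border rose and 1 fell (median 0.16).

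Far from either border, the largest rise was at 25001 to 26000 in rpoB, the gene of a subunit of the plastid-encoded RNA polymerase, with 2841, 2076, 2490.1 and 2468 CPM in EGS and 982, 1005, 1078 and 646 CPM in nox. The groups were well separated, and the log2 change was 1.33 ± 0.16 (edgeR adjusted p = 6.08e-07). The place 51001 to 52000 with trnV had 4049.6, 2715, 3994 and 3173 CPM in EGS and 1477, 1131, 1617 and 2045 CPM in nox. EGS replicates 1 and 3 were highest, no EGS library reached down to the nox values, and the log2 change was 1.31 ± 0.17 (edgeR adjusted p = 1.13e-06). Contacts also rose at 47001 to 48000 with trnL (1.16 ± 0.16) and at 59001 to 60000 with psaI, a small subunit of photosystem I, and ycf4, a factor for photosystem I assembly (1.15 ± 0.18). The last of these rested on few control contacts, with 1 in nox replicate 3.

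The lowest partner was 27001 to 28000, the place of trnC, 2 bins from the highest one, with 1039.9, 1002, 739.6 and 1175 CPM in EGS and 2335, 2359, 2335 and 2906 CPM in nox. Every nox library lay far above the highest EGS library, and the log2 change was -1.26 ± 0.16 (edgeR adjusted p = 1.14e-06). The place 65001 to 66000 with petL and petG, which encode small subunits of the cytochrome b6f complex, had 1184, 1234, 937 and 1332 CPM in EGS and 2415, 2443, 3772 and 2475 CPM in nox. Nox replicate 3 was the highest there, the groups did not overlap, and the log2 change was -1.09 ± 0.16 (edgeR adjusted p = 4.79e-06). Contacts also fell at 13001 to 14000 with atpH, the subunit of the rotating ring of the ATP synthase (-0.91 ± 0.16, edgeR adjusted p = 4.62e-05), and at 15001 to 16000 with rps2 and rpoC2 (-0.40 ± 0.15, edgeR adjusted p = 0.025). The call at rps2 and rpoC2 was lost under 8 alternatives.

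Grouped by gene function, places with photosystem genes moved mostly up and those of the ATP synthase did not. Of the 8 places with photosystem I genes 7 rose and 0 fell (median 0.53), and of the 13 with photosystem II genes 9 rose and 0 fell (median 0.53), beside 41 and 10 of all 84 (median 0.34). Among the photosystem I places, those with psaA and psaB (the core subunits) rose at 4 of 5, by 0.46 to 0.68. On the scale of member contacts only 2 of the 8 photosystem I places rose, and for photosystem II 5 rose and 2 fell.

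Of the 9 places with ATP synthase genes 2 rose, 3 fell and 4 did not pass (median -0.16). The rises were at 52001 to 53000 (1.19 ± 0.16), which holds trnM, atpE and part of atpB, and at 53001 to 54000 in atpB (0.48 ± 0.16), while 13001 to 14000 with atpH and 14001 to 15000 with atpI (-0.69 ± 0.16) fell. The third fall was at 54001 to 55000, which holds the start of atpB and of rbcL (-0.47 ± 0.15). Scaled to member contacts, 1 ATP synthase place rose and 5 fell (median -0.46). For cytochrome b6f genes 4 of 9 places rose and 1 fell, with 76001 to 77000 (petB and petD) at 0.92 ± 0.15 against petL and petG at -1.09. Of the 3 places of rbcL, the large subunit of Rubisco, 1 rose, 1 fell and 1 did not pass. On the scale of member contacts 2 cytochrome b6f places rose and 1 fell (median -0.09), and 0 rbcL places rose and 2 fell.

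For the genetic machinery, 4 of 14 places with RNA polymerase genes rose and 2 fell (median 0.09), 7 of 15 with ribosomal protein genes rose and 4 fell (median 0.21), and 13 of 22 with transfer RNA genes rose and 1 fell (median 0.45). Of the 3 places with NDH genes 2 rose, at 48001 to 49000 (0.81 ± 0.17) and 49001 to 50000 (1.04 ± 0.18), with ndhJ and ndhK. Of the 13 places with matK, accD, clpP, cemA or a ycf gene 7 rose and 1 fell (median 0.36). Scaled to member contacts, RNA polymerase places rose at 3 and fell at 3 (median -0.20), and ribosomal protein places rose at 2 and fell at 6 (median -0.07). On that scale transfer RNA places rose at 9 and fell at 5 (median 0.16), NDH places rose at 2 and fell at 1 (median 0.51), and those of the last list rose at 3 and fell at 4 (median 0.06). Places are shared between lists where a bin holds genes of several groups.

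Whether these changes belonged to the contacts with the repeat was tested by comparing each place's change with repeat partners and its change with partners in the large single copy region, in an edgeR fit with a term for that difference. In this comparison the contacts with each partner region were scaled to that region's own total, so the changes differ from those in the fit over all 384 totals. The repeat partners differed from the others at 10 of 84 places beyond 1 kb (11.9%, edgeR adjusted p under 0.05), 5 higher and 5 lower with the repeat. Beyond 10 kb it was 2 of 84 (2.38%, and 11 at an unadjusted p under 0.05). Those 2 were 59001 to 60000 with psaI and ycf4, where the change with the repeat was higher (difference 0.70, edgeR adjusted p = 0.00444), and 23001 to 24000 at the junction of rpoC1 and rpoB, where the change with the repeat was lower (difference -0.50, edgeR adjusted p = 0.0322). Both were chosen after their values were seen, as were the next 2. Among the 5 lower beyond 1 kb were 40001 to 41000 and 41001 to 42000 with psaA (differences -0.51 and -0.44, edgeR adjusted p = 0.00438 and 0.0219). Beyond 10 kb neither psaA place passed (edgeR adjusted p = 0.161 and 0.153).

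The largest difference beyond 1 kb was at 82001 to 83000 with rpl16 and rps3, next to the border, where the change was -0.24 with repeat partners and -1.14 with large single copy partners (difference 0.87). In the fit over all 384 totals its change with the repeat was 0.10. Across the 84 places the changes with either partner region had a correlation of 0.901 beyond 1 kb and 0.928 beyond 10 kb. Both values of a place come from the same libraries and the same 1-kb bin, so this correlation is a description, and its cause was not tested. The 27 repeat places were compared in the same way between partners in the large and in the small single copy region. The change differed at 1 place (3.7%), 109001 to 110000 with trnN and ycf1 next to the small single copy region (-0.30 with large and 0.24 with small single copy partners, edgeR adjusted p = 0.00451). In the fit over all 384 totals its change with large single copy partners was 0.09. No small single copy bin lies farther than 10 kb from this place, so it could not be tested beyond 10 kb. There 0 of the 25 places tested were called (0.0%, edgeR adjusted p under 0.05, and 4 at an unadjusted p under 0.05).

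**Figure D3:**
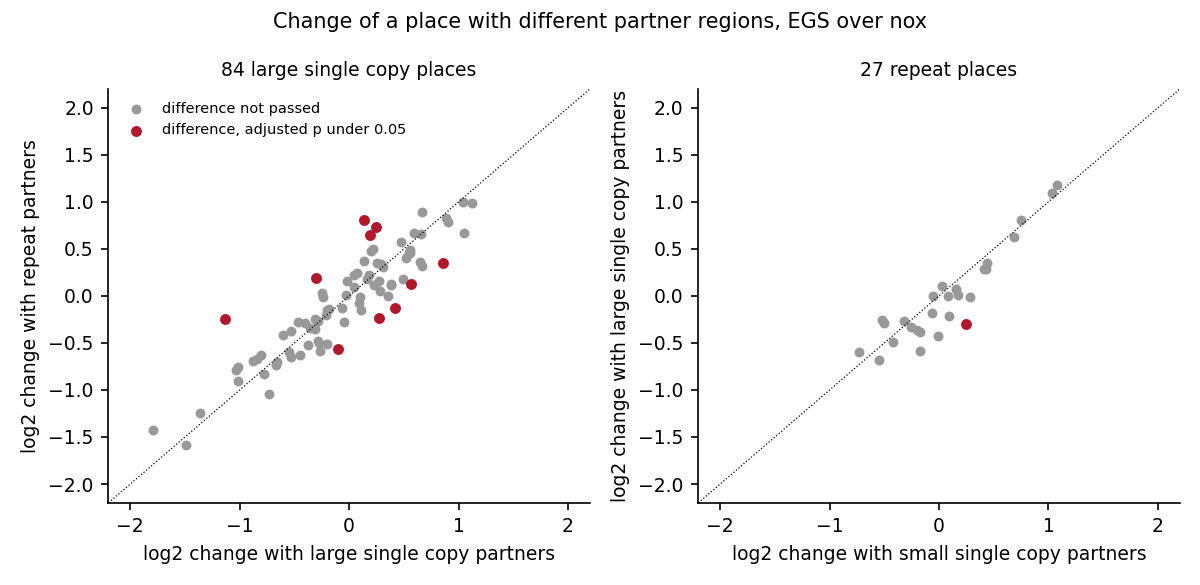
log2 change, EGS over nox, of each place with its partners across the repeat and large single copy region (vertical axes) against its change with another partner region (horizontal axes), for 84 large single copy places (left) and 27 repeat places (right), beyond 1 kb and scaled within each partner region; the dotted line marks equal change. Points follow the line, and red marks the 10 and the 1 places whose difference passed the test.

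Library profiles agreed within a group and not between groups. Over the 27 repeat places, the correlation of the contact shares of pairs of libraries was 0.68 to 0.90 within EGS and 0.63 to 0.97 within nox, and -0.21 to 0.35 between the groups. Over the 84 large single copy places it was 0.68 to 0.90 within EGS, 0.49 to 0.83 within nox and -0.53 to -0.12 between. Nox replicates 3 and 4 thus correlated more closely with the other nox libraries than with any EGS library, despite holding few contacts. They still differed in part: the rRNA operon held 30.4% and 33.1% of their member contacts, against 40.8% and 41.4% in nox replicates 1 and 2.

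By group mean, the pairs nearest the border held the most contacts in EGS libraries, and in nox libraries they did not. At a folded distance of 2 kb, which 4 folded pairs hold, contacts per pair relative to the mean of all pairs beyond 1 kb were 1.94, 2.37, 1.48 and 2.49 in EGS and 0.718, 0.562, 0 and 1.02 in nox. The groups did not overlap, although the nox libraries held at most 20 contacts there. EGS replicate 3 had a higher ratio at 3 to 5 kb, at 1.63. At 3 to 5 kb the ratio was 1.57 ± 0.149 in EGS and 0.644 ± 0.218 in nox, and at 6 to 10 kb 1.14 ± 0.060 and 0.911 ± 0.143 (SD, n = 4). These 3 ranges each gave an exact permutation p of 0.0286 and an adjusted p of 0.0571 over 6 ranges. From 11 kb to 68 kb the groups overlapped, ending at 1.05 ± 0.030 and 1.09 ± 0.027 at 41 to 68 kb (exact permutation test, p = 0.114).

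**Figure D4:**
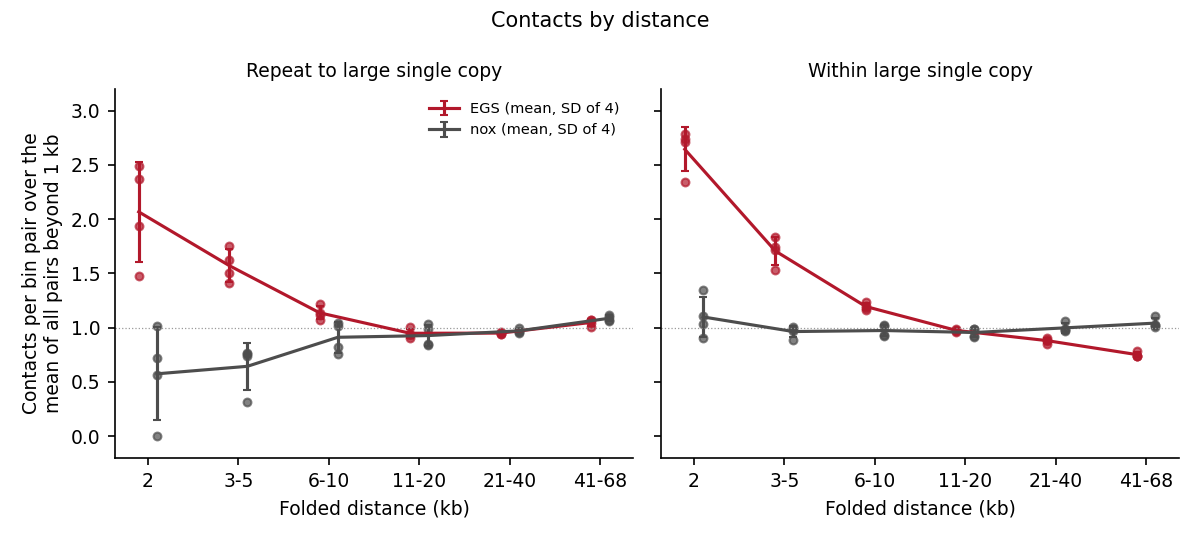
Contacts per folded bin pair, relative to each library's mean over such pairs beyond 1 kb (vertical axis), by folded distance in kb (horizontal axis), for repeat to large single copy pairs (left) and for pairs within the large single copy region (right); points are libraries, lines join means and bars are SD of 4. On the left EGS falls from 2.07 at 2 kb to 0.948 at 11 to 20 kb and lies at 1.05 at 41 to 68 kb, and on the right from 2.64 to 0.751, while nox stays near or below 1.

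As 1 value per library, contacts per pair at 2 to 10 kb over those beyond 20 kb had log2 ratios of 0.24, 0.41, 0.35 and 0.40 in EGS and -0.37, -0.47, -0.25 and -0.06 in nox. EGS libraries were all above 0 and nox libraries all below it, a difference of 0.64 (exact permutation test, p = 0.0286, adjusted p = 0.0429). Within the large single copy region the same ratio was 0.91 ± 0.107 in EGS and -0.05 ± 0.120 in nox (SD, n = 4). The excess of near over far contacts across the border was thus 0.56 lower in log2 than within the region in EGS and 0.24 lower in nox. These offsets overlapped between the groups, and their difference of -0.32 did not pass (exact permutation test, p = 0.0571). That difference was -0.06 between replicates 1 and 2 and -0.58 between replicates 3 and 4. A folded pair across the border pools contacts with both repeat copies at the distance of the nearer copy. Pairs within the large single copy region have a single distance, so these ratios are not like for like. The part of this pooling in the offsets was not tested.

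Split by border, pairs at 2 to 10 kb across the psbA end had ratios of 1.34, 1.42, 1.41 and 1.31 in EGS and 0.718, 0.724, 0.917 and 0.716 in nox. The groups were well apart (difference 0.603, exact permutation test, p = 0.0286, adjusted p = 0.0571 over both ends). Across the rpl22 end the ratios were 1.02, 1.22, 1.10 and 1.31 in EGS and 0.882, 0.774, 0.776 and 1.21 in nox. They overlapped through nox replicate 4, and the difference of 0.254 did not pass (exact permutation test, p = 0.0857). The difference between the ends was not tested.

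Segments and partners were then combined, as 48 pairs of a repeat segment with a block of 7 kb of the large single copy region, tested with edgeR in a fit over the 170 block pairs of the map that were tested. Of the 48, 19 rose and 0 fell (39.6% higher, where 59.4% of the block pairs tested were called, 28.8% higher and 30.6% lower). The segment from rpl2 to ycf2 rose with all 12 blocks, the segment from trnL to rps7 with 5 of 12, the rRNA operon with 2 of 12 and the trnN and ycf1 end with 0 of 12. Scaled to member contacts, 6 block pairs rose and 10 fell (14.1% of the block pairs tested higher and 45.9% lower). On the first copy alone 18 of the 48 rose and 6 fell, and on the second copy alone 21 rose and 1 fell.

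The largest change was between the ycf2 segment and block 1 (psbA, trnK, matK, rps16 and trnQ), with 13472, 12472, 14138 and 11472 CPM in EGS and 6052, 6163, 6562 and 4307 CPM in nox. Every EGS library lay well above the highest nox value, and the log2 change was 1.12 ± 0.15 (edgeR adjusted p = 1.88e-07). The next were block 8 (ndhK, ndhC, trnV, atpE, atpB and rbcL) at 0.92 ± 0.14, block 7 (ycf3, rps4, trnL, trnF and ndhJ) at 0.90 ± 0.15, block 11 (clpP, psbB, petB and petD) at 0.84 ± 0.14 and block 6 (psaA and psaB) at 0.74 ± 0.13. Blocks 6 to 8 lie in the middle of the region, far from both borders, and the part of distance in these block changes was not tested. The smallest change of that segment was with block 2, which holds atpA to atpH (0.29 ± 0.13, edgeR adjusted p = 0.0498).

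**Figure D5:**
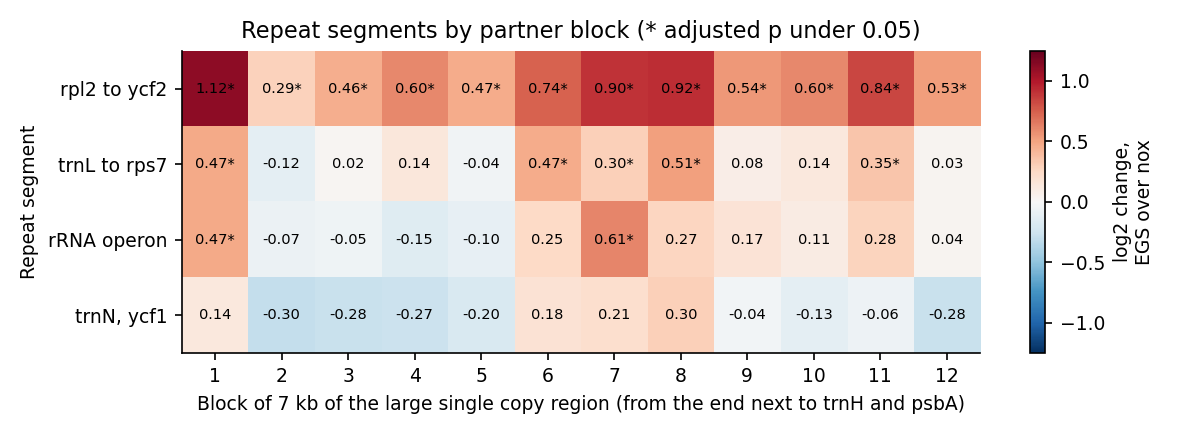
log2 change, EGS over nox, of contacts between the 4 repeat segments (rows) and the 12 blocks of 7 kb of the large single copy region (columns, from the end next to trnH and psbA); colour and printed number give the change and an asterisk an edgeR adjusted p under 0.05. The top row, rpl2 to ycf2, passes in all 12 columns, from 0.29 to 1.12, and the bottom row in none.

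Whether a segment preferred particular blocks was read from observed contacts divided by those expected from each library's segment and block totals. The groups did not overlap at 2 of 48 block pairs (4.17%), and the smallest adjusted p was 0.549 (exact permutation test). Both involved the rRNA operon: with block 4 the ratio was 0.966 ± 0.062 in EGS and 1.14 ± 0.112 in nox, and with block 7 it was 1.10 ± 0.046 and 0.892 ± 0.209 (SD, n = 4). Nox replicate 3, with 6 contacts, had the lowest ratio with block 7, at 0.580.

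Single pairs of bins were mostly too thin to test. The filter on low counts left 2 of the 2266 folded pairs, and 1 of them rose (of the 91 pairs tested over the whole map 46.2% were called, 25.3% higher and 20.9% lower). It joined 1001 to 2000, with psbA and trnK, to 86001 to 87000, with rpl23, trnI and ycf2, at 4 kb, with 26, 14, 10 and 5 contacts in EGS and 2, 4, 0 and 0 in nox. All EGS libraries were above all nox libraries in CPM, and the log2 change was 1.35 ± 0.37 (edgeR adjusted p = 0.00105). Without the filter 44 pairs rose and 3 fell, 1.94% and 0.132% of the members. Of the 7999 pairs of the map 3.58% were called, 1.85% higher and 1.73% lower, so the pairs that rose stood near the background share. DESeq2 called 164 of 1363 member pairs (12.03%), 163 higher and 1 lower, and over the whole map it called 15.6% of the 3502 pairs it tested. With edgeR on replicates 1 and 2 alone 95 of 260 member pairs were called (36.5%), 46 higher and 49 lower, and 48.2% of 873 pairs over the whole map. Without nox replicates 3 and 4, 6 of 166 member pairs rose and 23 fell.

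Of the 44, 35 had their repeat end between rpl2 and ycf2, a segment that holds 838 of the 2266 pairs. Rises were not concentrated at long range. Beyond 20 kb 27 of 1848 pairs rose, and at 11 to 20 kb 7 of 310. At 2 to 10 kb, the range with the fewest pairs, 10 rose. The pair with the smallest adjusted p joined 51001 to 52000, with trnV, to 88001 to 89000 in ycf2 at 37 kb. It had 22, 11, 11 and 1 contacts in EGS and 0, 0, 1 and 0 in nox (edgeR adjusted p = 0.00058). Relative to depth the groups overlapped, since nox replicate 3 held its 1 contact among 2844 beyond 1 kb and EGS replicate 4 its 1 among 12788. Named after its values were seen, this bin pair joined places that each rose in the totals above. The 3 pairs that fell joined petL and petG to rps19 and rpl2, trnC to ycf1 and ndhF, and rps2 and rpoC2 to rrn23S.

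The folding was checked on the copy to which contacts were assigned. The first copy received 50.2% ± 0.386 of member contacts in EGS and 52.6% ± 1.37 in nox (SD, n = 4; difference -2.41 points, exact permutation test, p = 0.0286, adjusted p = 0.0429). Without the first and last repeat place, which also hold sequence outside the repeat, the shares were 49.3% ± 0.481 and 51.3% ± 1.23 (exact permutation test, p = 0.0571). At the first place, 84001 to 85000, 78.3% of EGS contacts and 59.7% of nox contacts lay on the first copy. For partners within 10 kb of a border, the nearer copy received 50.3% ± 0.729 in EGS and 49.5% ± 2.53 in nox (SD, n = 4; exact permutation test, p = 0.629). Both means lay within 1 SD of an even split, and the distances given here are to the nearer copy by construction.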

How the data were processed

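The authors deposited unnormalized counts of contacts between 1-kb bins of the plastid chromosome (Pt of TAIR10), per the file headers, with a column per library. Per the submitters' processing notes, Trim Galore 0.4.1, Juicer and TAIR10 were used. The aligner settings, read filters and placement of reads with several possible positions are not given in the sources used here. Gene names came from a RefSeq table of TAIR10.1, and bin positions are those of the deposited table, 1-based. No sequences were used.

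Groups and replicate numbers came from the sample titles. The members and gene lists were chosen with earlier results of these data known. Segments were split by gene content: 10 places from rpl2 to ycf2, 6 from trnL to rps7, 9 of the rRNA operon and 2 at the trnN and ycf1 end. Totals of each place with each of 3 partner regions (each contact counted at both ends), folded pairs and block pairs were each fitted over the whole map with edgeR 4.0.16 (R 4.3.3; TMM, filterByExpr with a minimum count of 10, quasi-likelihood test, prior count 2, Benjamini-Hochberg threshold 0.05). A standard error is the log2 change over the square root of F. Values per library were compared by exact two-sided permutation over 70 assignments. The named places, pairs and blocks are up to 5 with the largest rise and up to 5 with the largest fall among those past the threshold without overlap, no neighbours. Border places and gene lists are described whatever their values, and others are named as examples of a list or as chosen after their values were seen. 1 named place is not reported here. Alternatives were DESeq2 1.42.0, other scalings, filters, distance minimums and single copies, depth classes, a replicate block and leaving out each library. Comparing partner regions, leaving out nox replicates 3 and 4, leaving out pairs within 20 kb and the copy placement without the end places were chosen after seeing the data.

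On simulated data with 2-fold changes, the edgeR fit recovered 97.9% of changed totals among 384, 97.6% of changed block pairs among 170 and 18.2% of changed pairs among 91. Of the calls, 2.08%, 6.82% and 0% were false. The simulation set the same spread between libraries in both groups, so these shares need not hold for the real libraries. Python 3.11.15, numpy 2.4.6, pandas 2.3.3 and matplotlib 3.10.9 were used.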

Additional observations from a re-analysis of the deposited data

Results flagged for a closer look

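Of 60 groups of 4 libraries examined among the named members, 3 held a library whose gap to the nearest other exceeded Dixon's 95% critical value for 4 samples, which chance does in about 1 in 20 groups. At the trnC place, 27001 to 28000, nox replicate 4 had 2906 CPM with the repeat, against 2335 to 2359 CPM in the other nox libraries. At petL and petG, 65001 to 66000, nox replicate 3 had 3772 CPM, against 2415 to 2475 CPM. Between the rpl2 to ycf2 segment and block 6, which holds psaA and psaB, nox replicate 3 had 4375 CPM, against 5841 to 6030.4 CPM. All 3 were in the shallow nox libraries, and in each case the group stayed apart from the EGS libraries.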

How the results depend on the processing

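Nox replicates 3 and 4 hold few member contacts. Without both, the differences were 4.31 points for the share of contacts, -1.06 for the trnL to rps7 segment, -5.87 for the rRNA operon, -1.88 for the trnN and ycf1 end and -1.37 for the first copy. In that design the permutation test cannot pass. Leaving out 1 library at a time gave 5.78 to 8.39 points for the share, -3.22 to -1.89 for trnL to rps7, -4.49 to -2.73 for the trnN and ycf1 end, -2.92 to -1.84 for the first copy (p = 0.0571 without any 1 EGS library, exact permutation) and -3.07 to -1.55 for the large single copy bins 1 to 42 as partners, which passed only without nox replicate 4 (main difference -2.16, exact permutation p = 0.114). The trnL to rps7 difference was -2.15 beyond 20 kb and -2.31 on the first copy alone, and the trnN and ycf1 end difference was -1.12 on the second copy alone, none passing. Of the large single copy places, 33 were called in replicates 3 and 4 alone, against 51. Called folded pairs numbered 1 with the filter, 47 without it, 164 with DESeq2 (163 higher), 95 in replicates 1 and 2 alone (46 higher and 49 lower), 29 without nox replicates 3 and 4 (6 higher and 23 lower), and 10 to 21 without EGS replicate 3 or 4 or nox replicate 3 or 4. Fewer low libraries let more pairs through the filter. No member pair was tested in the other settings of distance, single copy, shallow replicates or left-out library. Whether replicate numbers pair the libraries was not settled. Deviations of same-numbered libraries correlated at 0.373, -0.232, -0.186 and 0.16, and those of differently numbered ones at -0.297 to 0.37. With the replicate block 14 repeat places, 46 large single copy places, 17 block pairs and 1 pair were called, and the sign-flip test of paired differences reaches no p below 0.125. Among named members under all alternatives, 396 of 410 results kept direction and call, 14 lost the call and 0 reversed; 8 of the 14 were at rps2 and rpoC2.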
